A study of Mus musculus with 12 samples.

Results

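The small leucine-rich proteoglycans are secreted proteins of the extracellular matrix, and 10 of their genes were followed here through white adipose tissue and liposarcoma of the same transgenic mouse model. The genes were Dcn (decorin), Lum (lumican), Bgn (biglycan), Fmod (fibromodulin), Ogn (osteoglycin), Omd (osteomodulin), Prelp, Aspn (asporin), Podn (podocan) and Chad (chondroadherin), taken by gene name from the 37750 rows of the deposited expression table. All 10 had a row of their own. The family split between the tissues: Aspn and Bgn rose in liposarcoma, Dcn, Lum, Prelp, Podn, Ogn and Fmod fell, and Omd and Chad did not pass the test.

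The mice, called Ad/NICD, were of strain 129 x C57BL/6 and carried an active Notch1 intracellular domain in adipocytes. The 4 libraries named WAT are white adipose tissue of animals 3 weeks of age, and the 8 libraries named LPS are liposarcoma of animals 9 to 12 months of age. Both groups carry the transgene, and no library without it was analysed here, so the comparison is between tumour and young adipose tissue of one genotype. Age and tissue cannot be told apart between the groups. The promoter that drives the transgene, the fat depot of each WAT sample and the site of each tumour are not stated in the labels. Total RNA was depleted of ribosomal RNA, and each level is an FPKM value, the fragments assigned to a gene per kilobase of its transcript, scaled to the mapped fragments of its library.

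Small leucine-rich proteoglycans share a core of repeated leucine-rich motifs that curves into an arc and binds the surface of collagen fibrils. They set how wide fibrils grow and how they are spaced, and several of them hold growth factors of the transforming growth factor-β family in the matrix or act as ligands of cell surface receptors. Most carry chains of chondroitin, dermatan or keratan sulfate. In adipose tissue several of them are mostly products of stromal fibroblasts rather than of the fat cells, and decorin is among the most abundant transcripts of such fibroblasts.

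Facts that concern all libraries bear on the precision. The FPKM worth about 1 fragment on a transcript of 2 kb, read from the smallest values of single-transcript genes, ranged from 0.0188 in WAT 1 to 0.0477 in LPS 1, so levels under about 0.1 rest on a few fragments. Notch1, the targeted gene, measured 24.5 to 39.5 FPKM in WAT and 44.2 to 84.6 in LPS, a log2 difference of 1.07 (adjusted p = 0.000703, limma), and its row does not part the transgene from the gene of the mouse. LPS 5 stood apart, with 361556 FPKM in the row Gm10800 against at most 3340 in any other library. Its median ratio to the geometric mean of all libraries, itself included, was 0.814. Skeletal muscle markers summed to 1816 FPKM in WAT 1, 1584 in WAT 4 and 476 in LPS 8, against 1.27 to 224 in the other libraries, and the results below are also given without WAT 1 and WAT 4 where that changed them. Adipocyte markers summed to 4540 to 5506 FPKM in WAT and 3.12 to 39.9 in LPS, and all 8 fell. In bulk tissue, fewer cells of a type and less RNA per cell cannot be told apart.

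Levels were compared with limma on log2(FPKM + 1), with p-values adjusted by the Benjamini-Hochberg method over the 14821 rows with 4 or more libraries at 1 FPKM or above. Because 1 is added before the logarithm, changes of weakly expressed genes come out too small. All 10 genes were tested. Fmod and Podn had 4 WAT and only 2 LPS libraries at 1 FPKM or above. They passed the filter only with WAT, where they are high, so their test values and calls are a description. Of the 10 genes, 2 were higher and 6 lower in LPS at an adjusted p under 0.05, with Fmod and Podn among the 6. Across the table, 18.9% of the rows tested were higher and 27.0% lower by the same rule. All 8 called genes had groups that did not overlap, as had 32.6% of all rows tested. The median log2 difference of the 10 genes was -1.89, and that of all rows tested was -0.05.

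**Figure D1:**
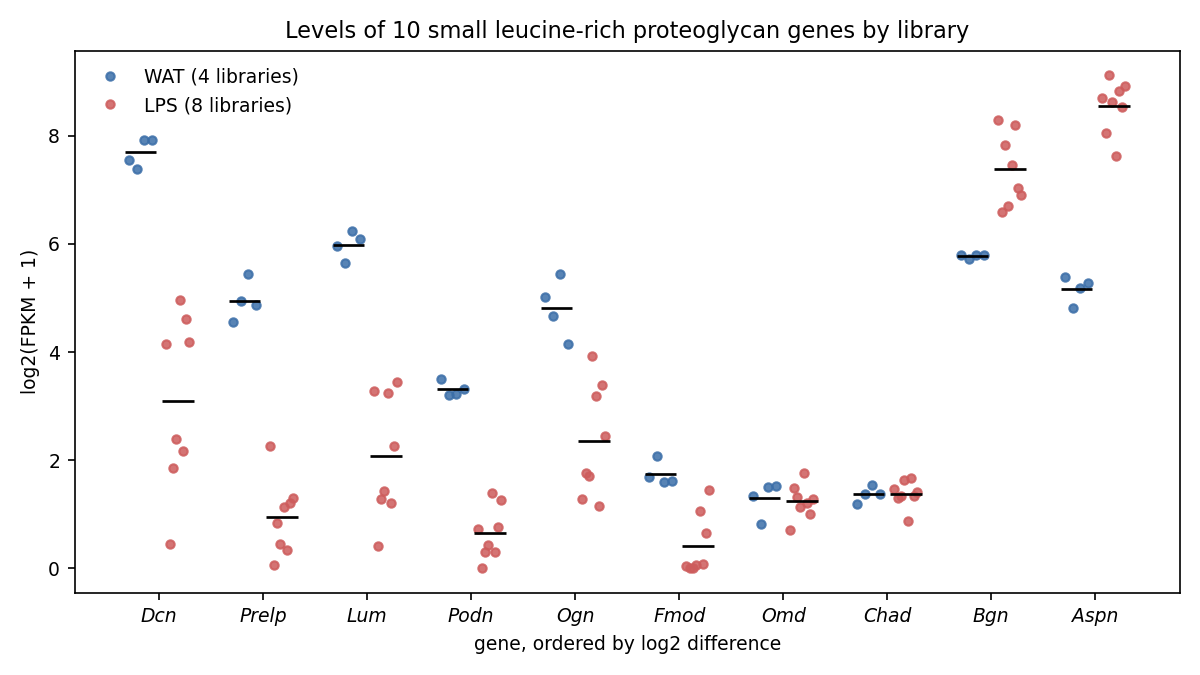
Level of each gene, as log2(FPKM + 1), in the 4 WAT libraries (blue) and the 8 LPS libraries (red); points are libraries, bars are group means and genes are ordered by their difference. Aspn and Bgn lie higher in every LPS library than in any WAT library, 6 genes from Dcn to Fmod lie lower, and the groups of Omd and Chad overlap.

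Sequence was available in the RefSeq promoter table (build GRCm38.p6) for 8 of the 10 genes; Dcn and Lum had no entry. The 250 bases before the start site are shown for Aspn, Omd and Ogn, which lie side by side on chromosome 13 and went 3 different ways, for Bgn, which rose with Aspn, and for Prelp, whose promoter was the only one of the 8 with the core motif of RBPJ, the DNA-binding partner of the Notch intracellular domain. Capitals mark that motif, TGGGAA on either strand, and sequences read 5′ to 3′ on the strand of the gene.
Aspn (chr13:49544193-49544442, plus strand): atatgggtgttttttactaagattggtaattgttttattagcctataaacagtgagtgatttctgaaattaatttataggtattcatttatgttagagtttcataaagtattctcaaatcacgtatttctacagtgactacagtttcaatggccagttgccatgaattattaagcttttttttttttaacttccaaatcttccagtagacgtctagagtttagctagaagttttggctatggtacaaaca
Omd (chr13:49582212-49582461, plus strand): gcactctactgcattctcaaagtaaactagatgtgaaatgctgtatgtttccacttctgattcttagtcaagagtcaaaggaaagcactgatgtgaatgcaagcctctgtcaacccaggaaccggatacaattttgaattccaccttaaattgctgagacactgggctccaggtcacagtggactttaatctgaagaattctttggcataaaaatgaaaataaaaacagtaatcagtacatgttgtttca
Ogn (chr13:49607765-49608014, plus strand): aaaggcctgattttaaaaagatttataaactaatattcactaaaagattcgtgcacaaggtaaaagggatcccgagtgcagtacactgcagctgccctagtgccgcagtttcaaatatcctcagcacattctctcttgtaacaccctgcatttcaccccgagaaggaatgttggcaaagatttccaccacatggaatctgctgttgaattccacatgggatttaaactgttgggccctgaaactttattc
Bgn (chrX:73483351-73483600, plus strand): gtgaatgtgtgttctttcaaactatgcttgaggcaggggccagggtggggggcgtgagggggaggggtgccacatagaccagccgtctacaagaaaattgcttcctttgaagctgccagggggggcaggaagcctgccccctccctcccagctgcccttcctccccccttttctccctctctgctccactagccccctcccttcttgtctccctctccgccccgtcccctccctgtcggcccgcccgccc
Prelp (chr1:133921402-133921651, minus strand): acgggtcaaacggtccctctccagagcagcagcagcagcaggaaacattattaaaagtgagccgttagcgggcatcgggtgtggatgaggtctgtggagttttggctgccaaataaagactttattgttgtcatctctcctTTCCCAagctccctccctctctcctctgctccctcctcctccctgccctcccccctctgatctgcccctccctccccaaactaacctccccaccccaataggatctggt

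The RBPJ motif occurs in 21.6% of the 32851 promoters of the table at this length, so 1 gene of 8 is a description of these windows only. TATAAA, searched on both strands, was found 2 times each in Aspn and Ogn and 1 time in Chad, against 12.4% of all promoters with any match, and the matches in Ogn overlap each other on opposite strands. GGGCGG, a GC box, was found 3 times in Bgn, with overlapping matches, and 1 time in Chad, against 32.7% of all promoters. Podn had 2 windows, and GGGCGG was found 2 times in 1 of them and 0 times in the other. The windows of Aspn, Omd and Ogn were 30%, 38.4% and 42% G or C, those of Prelp and Bgn 55.6% and 64.4%, and the median promoter was 52.4%.

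Decorin, biglycan and asporin are the closest relatives in the family. Decorin limits the sideways fusion of collagen fibrils and binds growth factors and their receptors. Dcn was the most abundant of the 10 genes in each WAT library, at 187, 165, 241 and 243 FPKM in WAT 1 to 4. In LPS 1 to 8 it measured 16.8, 0.358, 2.63, 4.22, 30.1, 3.49, 23.4 and 17.2 FPKM. No LPS library came near the WAT range, and LPS 2 lay far under the others. The mean fell from 209 ± 39.0 (SD, n = 4) to 12.3 ± 11.1 (SD, n = 8) FPKM, and on the log2 scale the gene fell by 4.60 (SE 0.739, adjusted p = 0.000219, limma).

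Biglycan, which carries chondroitin or dermatan sulfate chains and can act as a ligand of Toll-like receptors, went the other way. Bgn measured 54.7, 51.5, 54.3 and 54.3 FPKM in WAT 1 to 4, the tightest WAT values among the 10 genes. In LPS 1 to 8 it measured 315, 95.1, 227, 103, 176, 294, 130 and 119 FPKM. Every LPS library exceeded every WAT library, with LPS 1 and LPS 6 highest and LPS 2 lowest. The log2 difference was 1.61 (SE 0.317, adjusted p = 0.00105, limma), and mean FPKM was 3.40 times as high in LPS as in WAT. Bgn lies on the X chromosome (chrX:73483602-73495933, plus strand, GRCm38), and with the level of Xist as a covariate its call was unchanged. LPS 1 and LPS 6, highest for Bgn, had the lowest Xist of the tumours, at 3.74 and 0.660 FPKM against 17.0 to 188 in the others. WAT 1 had 0.0755 FPKM of Xist, and its Bgn level was close to those of WAT 3 and WAT 4. A relation of Bgn with Xist within the tumours was not tested.

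Asporin binds collagen and transforming growth factor-β and is named for a run of aspartates near its start. Aspn showed the largest rise of the 10 genes. It measured 41.1, 27.0, 35.4 and 37.9 FPKM in WAT 1 to 4, and 413, 263, 555, 392, 197, 453, 371 and 483 FPKM in LPS 1 to 8. The lowest LPS library, LPS 5, stood well over the highest WAT library. The log2 difference was 3.38 (SE 0.249, adjusted p = 2.00e-07, limma), and mean FPKM rose 11.1-fold. Aspn was the most abundant of the 10 genes in all 8 LPS libraries, with Bgn next in each of them, whereas Aspn made up only 7.03% to 9.96% of the summed FPKM of the 10 genes in WAT.

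The makeup of the family differed between the tissues. Summed over the 10 genes, FPKM ran from 361 to 504 in WAT (435 ± 61.7, SD, n = 4) and from 364 to 792 in LPS (601 ± 163, SD, n = 8), and the lowest tumours lay within the WAT range. Dcn held 45.2% to 52.6% of that sum in WAT and 0.0983% to 7.07% in LPS. Bgn and Aspn together held 17.8% to 23.2% in WAT and 87.4% to 98.7% in LPS. Shares are of FPKM, which is scaled to transcript length, so they compare levels between genes and are not shares of protein.

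**Figure D2:**
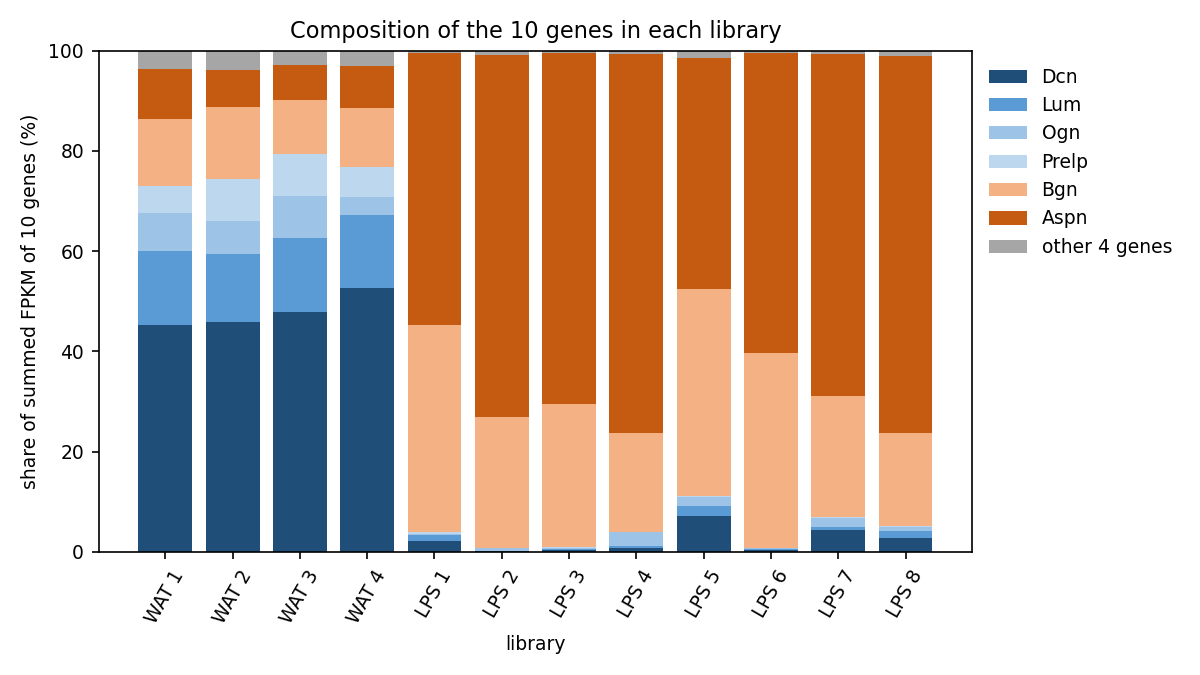
Share of each gene, in percent, in the summed FPKM of the 10 genes, with 1 bar for each of the 12 libraries. Dcn is the largest piece of each WAT bar, and Aspn with Bgn fill 87.4% or more of each LPS bar.

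Lumican, fibromodulin, PRELP and osteomodulin form the keratan sulfate class of the family. Lumican regulates fibril thickness and is best known from the cornea. Lum measured 61.3, 49.1, 74.7 and 67.2 FPKM in WAT 1 to 4, and 8.76, 0.329, 1.42, 1.68, 8.52, 1.29, 3.76 and 9.89 FPKM in LPS 1 to 8. The highest tumour value lay under the lowest WAT value, and LPS 2 was again lowest. Lum fell by 3.92 on the log2 scale (SE 0.536, adjusted p = 5.40e-05, limma).

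Prelp, whose product anchors basement membranes to the underlying connective tissue, had the highest ratio of mean levels among the genes that fell. It measured 22.4, 29.9, 42.3 and 28.2 FPKM in WAT 1 to 4, and 3.80, 0.0438, 0.778, 0.365, 1.19, 0.255, 1.31 and 1.46 FPKM in LPS 1 to 8. LPS 1 was the highest tumour and the value of LPS 2 is near that of 1 fragment. Mean FPKM was 26.7 times as high in WAT as in LPS, and the log2 difference was -4.00 (SE 0.347, adjusted p = 9.03e-07, limma). Prelp shares a table locus with Optc, another family gene, which was under the filter in both groups (means 0.0613 and 0.166 FPKM).

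Fibromodulin, which guides collagen crosslinking, is a tendon and cartilage gene and was low in both tissues. Fmod measured 2.22, 3.23, 2.01 and 2.05 FPKM in WAT 1 to 4. It was listed at 0 in LPS 2 and LPS 3, measured 0.0277, 0.0419 and 0.0612 in LPS 1, LPS 4 and LPS 6, and reached 1.09, 0.564 and 1.71 in LPS 5, LPS 7 and LPS 8. The tumours thus spread from no measured level to near the lowest WAT value without reaching it. Fmod fell by 1.32 on the log2 scale (SE 0.281, adjusted p = 0.00180, limma), a size that depends on the pseudocount because the levels are low. As Fmod passed the filter only with WAT, where it is high, this value is a description.

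Osteomodulin, a bone and tooth matrix protein, did not separate the tissues. Omd measured 1.51, 0.754, 1.84 and 1.89 FPKM in WAT 1 to 4, and 0.633, 1.80, 1.48, 1.21, 2.39, 1.31, 1.01 and 1.44 FPKM in LPS 1 to 8. The groups overlapped over most of their range. The log2 difference was -0.06, with a 95% interval from -0.48 to 0.37 (adjusted p = 0.838, limma). That interval is on the scale of log2(FPKM + 1), where changes of weakly expressed genes come out too small. It thus leaves room for larger changes in FPKM itself, in either direction.

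Osteoglycin, also called mimecan, belongs to a separate class of the family and carries keratan sulfate in some tissues. Ogn measured 31.3, 24.3, 42.3 and 16.8 FPKM in WAT 1 to 4, and 1.42, 2.38, 2.27, 14.3, 8.14, 1.21, 9.47 and 4.42 FPKM in LPS 1 to 8. WAT 4 and LPS 4 came closest to each other, and no tumour reached the WAT range. Ogn fell by 2.46 on the log2 scale (SE 0.508, adjusted p = 0.00148, limma). LPS 4, the highest tumour for Ogn, was in the lower part of the range for Dcn.

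Podocan and chondroadherin stand outside the main classes and are not typical chain carriers. Podocan binds collagen and restrains the growth of smooth muscle cells. Podn measured 10.3, 8.26, 8.30 and 8.96 FPKM in WAT 1 to 4, was listed at 0 in LPS 2, and measured 0.653, 0.238, 0.340, 1.63, 0.230, 0.694 and 1.39 FPKM in LPS 1 and LPS 3 to 8. Podn fell by 2.66 on the log2 scale (SE 0.244, adjusted p = 1.48e-06, limma). This value too is a description, because Podn passed the filter only with WAT, where it is high. Podn and Scp2, a sterol carrier of peroxisomes, overlap on the same strand of chromosome 4 in GENCODE M21 (chr4:108014791-108096445 and chr4:108043839-108144998) and share a locus in the table. Scp2 fell as well, from a mean of 172 to 26.8 FPKM (log2 difference -2.66, adjusted p = 7.38e-08, limma), and the part that reads shared between both genes have in the Podn value was not tested.

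Chondroadherin is a cartilage protein that binds integrins, and its gene was not called between the tissues. Chad measured 1.28, 1.58, 1.92 and 1.58 FPKM in WAT 1 to 4, and 1.76, 1.47, 1.52, 2.11, 0.820, 2.19, 1.53 and 1.65 FPKM in LPS 1 to 8. The log2 difference was 0.01, with a 95% interval from -0.32 to 0.34 (adjusted p = 0.966, limma). As for Omd, that interval leaves room for larger changes in FPKM itself. Chad (chr11:94565047-94569127, plus strand) lies inside the span of Acsf2, which is on the minus strand and fell from 16.9 to 7.87 FPKM (log2 difference -1.05, adjusted p = 0.000731, limma). No source used here says whether the authors' assignment of reads took the strand into account, so at levels near 1 FPKM reads of Chad and of Acsf2 introns cannot be told apart.

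**Figure D3:**
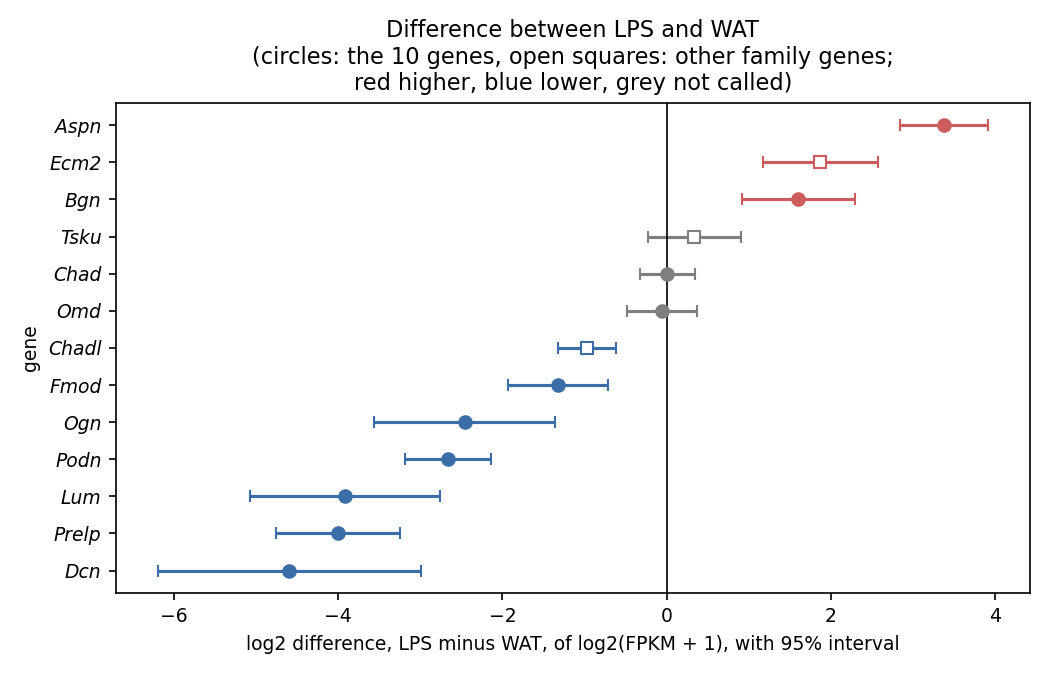
Log2 difference, LPS minus WAT, of log2(FPKM + 1) with its 95% interval from limma, for the 10 genes (circles) and the 3 other family genes that were tested (open squares); red is higher, blue lower and grey not called. The intervals of Aspn, Bgn and Ecm2 lie to the right of 0, those of Omd, Chad and Tsku cross 0, and the other 7 lie to the left.

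The order of levels differed between the tissues. In WAT the order of mean FPKM was Dcn at 209, Lum at 63.1, Bgn at 53.7, Aspn at 35.4, Prelp at 30.7, Ogn at 28.7, Podn at 8.95, Fmod at 2.38, Chad at 1.59 and Omd at 1.50. Dcn lay over every other gene in each of the 4 libraries, while the ranges of Lum and Bgn overlapped, as did those of Aspn, Prelp and Ogn, and those of Chad and Omd. In LPS the order was Aspn at 391, Bgn at 182, Dcn at 12.3, Ogn at 5.45, Lum at 4.46, Chad at 1.63, Omd at 1.41, Prelp at 1.15, Podn at 0.648 and Fmod at 0.437. Aspn exceeded Bgn in each of the 8 tumours, although their ranges over tumours overlapped, Bgn exceeded the other 8 genes in each tumour, Bgn exceeded the other 8 genes in each tumour, and from Dcn down every gene's range overlapped that of its neighbour.

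Several of the genes lie in clusters, and the neighbours on chromosome 13 went different ways. There, in GENCODE M21 (GRCm38), Ecm2 (chr13:49504810-49532789), Aspn (chr13:49544443-49567565), Omd (chr13:49582462-49592822) and Ogn (chr13:49608046-49624501) follow each other on the plus strand. Ecm2, a leucine-rich relative of the class of decorin, rose with its neighbour Aspn, from 3.84 to 6.37 FPKM in WAT to 6.97 to 40.5 in LPS (log2 difference 1.87, SE 0.325, adjusted p = 0.000393, limma). Omd, next to Aspn on the other side, was not called, and Ogn after it fell. The promoters of Aspn, Omd and Ogn, printed at the start, are poorer in G and C than the median promoter.

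The whole chromosome 13 group lies within the span of Cenpp, a centromere protein gene on the minus strand (chr13:49464023-49652785), and the table gives all of them the same locus. Cenpp measured 1.27 to 2.06 FPKM in WAT and 1.70 to 5.48 in LPS (log2 difference 0.76, adjusted p = 0.0159, limma). For Aspn, at 197 FPKM or more in each tumour, Cenpp is more than an order of magnitude lower. Omd was close to Cenpp in WAT (means of 1.50 and 1.57 FPKM) and lay under it in each of the 8 tumours (means of 1.41 and 3.51 FPKM). Across the tumours the levels of Omd and Cenpp were correlated (Pearson r = 0.828, exact permutation p = 0.00977, adjusted p = 0.0489 over 5 pairs of overlapping genes; Spearman rho = 0.881, exact permutation p = 0.00724, adjusted p = 0.0362). Without LPS 1 and LPS 5, the tumours farthest from the median of Omd, r was 0.804 (exact permutation p = 0.0597), so the relation then missed the threshold. These 5 pairs were chosen after the values were seen, and none of the other 4 passed (adjusted p from 0.179 to 0.935, exact permutation). How much of the Omd value is sequence of Cenpp introns was not tested.

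**Figure D4:**
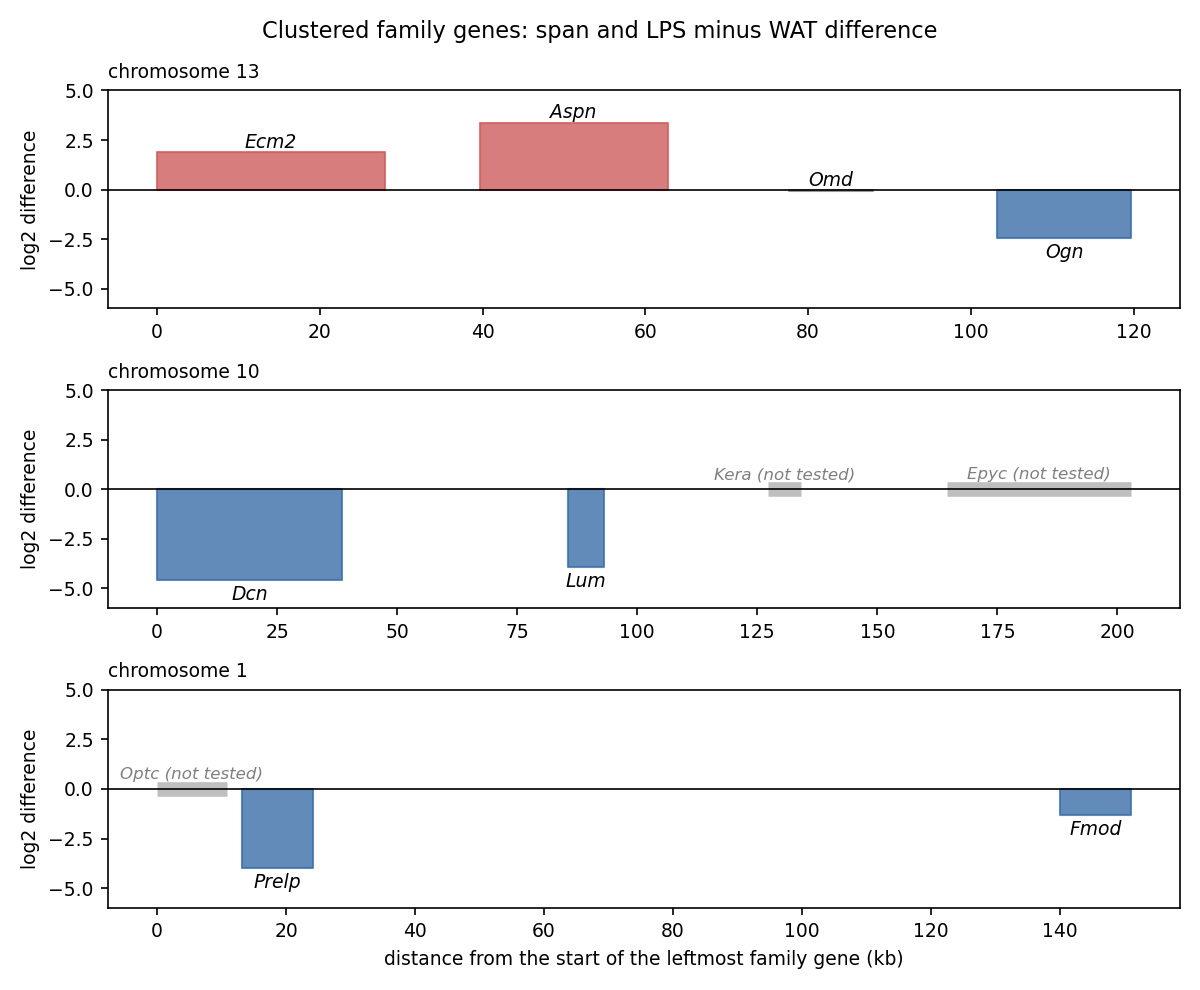
Position of clustered family genes (kilobases from the start of the leftmost one, on chromosomes 13, 10 and 1) and the log2 difference of each, LPS minus WAT, as bar height. Red is higher, blue lower and grey tested but not called (Omd). Light grey bands labelled as not tested mark genes under the filter on low values. On chromosome 13 the differences run from 3.38 for Aspn to -2.46 for Ogn, while the tested neighbours on chromosomes 10 and 1 all lie under 0.

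On chromosome 10, Dcn (chr10:97479609-97518143) and Lum (chr10:97565128-97572703) are neighbours on the plus strand, followed by Kera (keratocan) and Epyc (epiphycan), which are cornea and cartilage genes and did not reach the filter. Their mean levels were 0.0164 and 0.0997 FPKM in WAT and 0.0494 and 0.0471 in LPS. On chromosome 1, Prelp (chr1:133910304-133921414, minus strand) and Fmod (chr1:134037254-134048277, plus strand) both fell.

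Relations within the tumours were examined for 6 pairs, 5 of neighbours on a chromosome and Dcn with Bgn. Dcn and Lum varied together over the 8 LPS libraries (Pearson r = 0.918, exact permutation p = 0.00365, adjusted p = 0.0219 over the 6 pairs). Spearman's rho was 0.786 (exact permutation p = 0.0279, adjusted p = 0.168), which missed the threshold. Without LPS 2 and LPS 5, the tumours farthest from the median of Dcn, r was 0.849 (exact permutation p = 0.0792). The tumours lie on both sides of a gap in Dcn, with LPS 1, LPS 5, LPS 7 and LPS 8 at 16.8 FPKM or more and the other 4 at 4.22 or less, and the relation was not tested within either side, each of which holds only 4 tumours. For the other 5 pairs, r ran from -0.594 for Omd and Aspn to 0.307 for Fmod and Prelp, with adjusted p from 0.376 to 0.658 (exact permutation). Thus neither Ogn and Aspn, on chromosome 13, nor the paralogs Dcn and Bgn had a relation that passed.

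**Figure D5:**
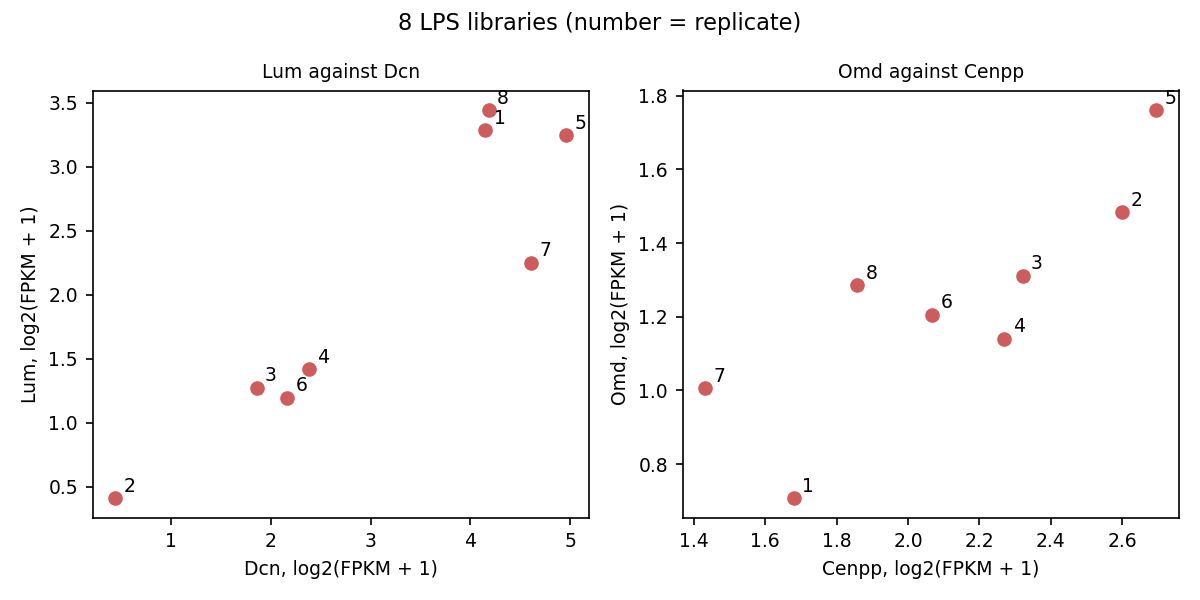
Log2(FPKM + 1) of Lum against Dcn (left) and of Omd against Cenpp (right) in the 8 LPS libraries, each point labelled with its replicate number. On the left LPS 1, 5, 7 and 8 sit apart from LPS 2, 3, 4 and 6; on the right LPS 5 is highest for both genes.

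The spread from tumour to tumour differed among the 10 genes. The SD of log2(FPKM + 1) over the 8 tumours was 1.60 for Dcn, 1.16 for Lum and 1.05 for Ogn, against a median of 0.35 over the 13280 rows that reached 1 FPKM in at least 4 LPS libraries. From the lowest tumour to the highest, FPKM ran 86.9-fold for Prelp, whose lowest value is near that of 1 fragment, 84.2-fold for Dcn, 30.0-fold for Lum and 11.8-fold for Ogn, while Fmod and Podn ran from a listed 0. Aspn and Bgn were more even, at 2.82-fold and 3.31-fold. LPS 2 was lowest for Dcn, Lum, Bgn, Prelp and Podn, and was listed at 0 with LPS 3 for Fmod.

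Some stromal transcripts were highest in the same tumours as Dcn, and others were not. Pdgfra, a receptor that marks fibroblasts and adipose progenitors, measured 1.26, 3.43, 2.54 and 1.94 FPKM in LPS 1, LPS 5, LPS 7 and LPS 8, the tumours with most Dcn. It measured 0.0765, 0.207, 0.397 and 0.131 in LPS 2, LPS 3, LPS 4 and LPS 6. Of the 14 markers of stromal fibroblasts and progenitors, 10 fell in LPS and the other 4 were not called (limma), and their summed level was 1475 to 1901 FPKM in WAT and 175 to 433 in LPS. The sum was highest in LPS 6, a tumour with little Dcn, where Thy1 at 169 FPKM and Gsn at 166 FPKM were its largest parts. The sum thus follows its most abundant genes and does not stand for the list as a whole. Like Pdgfra, the genes Pi16, Fbln2 and Dpt were higher in each of LPS 1, LPS 5, LPS 7 and LPS 8 than in any of LPS 2, LPS 3, LPS 4 and LPS 6. No other gene of the list parted the tumours fully in this way. Dpt and Mfap5 of that list also belong to the fibril assembly genes described further on. Of 10 tested markers of pericytes and smooth muscle, 8 rose and 1 fell, and the sum of that list went from 243 to 290 FPKM in WAT to 3643 to 7724 in LPS. Rgs5 alone measured 2068 to 4326 FPKM in the tumours, so this sum too follows its most abundant gene. The contractile genes of the list did not move as one. Mean FPKM in WAT and LPS was 44.3 and 64.6 for Acta2, 15.3 and 66.3 for Myh11, 19.7 and 9.42 for Tagln, and 1.20 and 0.362 for Cnn1. These lists move between the groups together with the 10 genes, and their part in the results was not tested.

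The remaining marker lists describe other cell types and tissues, and their part in the levels of the 10 genes was not tested. Markers of bone, a tissue rich in Omd and Ogn, summed to 2.49 to 3.15 FPKM in WAT and 13.1 to 43.2 in LPS, and 2 of 3 tested rose. Mean levels of Sp7 and Dmp1 were 0.0471 and 0.0419 FPKM in WAT and 7.99 and 8.66 in LPS. Both passed the filter only through LPS, where they are high, so their test is a description. Bglap and Ibsp, of the same list, had means of 0.238 and 0.0414 FPKM in LPS and did not pass the filter. Cartilage markers summed to 2.39 to 3.56 and 4.13 to 14.8 FPKM (1 of 2 rose), with 6 of the 8 under 1 FPKM in every tumour. The marker that rose, Sox9, had means of 0.324 FPKM in WAT and 4.75 in LPS and likewise passed the filter only through LPS. Tendon markers summed to 2.58 to 4.14 and 0.874 to 16.4 FPKM (2 tested, not called). Endothelial markers summed to 169 to 248 FPKM in WAT and 87.1 to 174 in LPS (1 rose, 5 fell), macrophage markers to 166 to 253 and 188 to 634 (2 rose), and lymphocyte markers to 74.0 to 143 and 2.11 to 51.9 (6 fell). Schwann cell markers summed to 137 to 192 and 3.48 to 10.6 FPKM (6 fell), and no marker of epithelium and mesothelium passed the filter, with sums of 1.97 to 13.7 and 0.0314 to 8.57. Of the skeletal muscle markers, 1 of 6 tested fell.

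No slope on age within the tumours passed the threshold. The tumour-bearing animals were 9, 10, 11 or 12 months of age, and a linear slope on age was fitted over 13280 rows in the 8 LPS libraries. None of the 8 members that could be tested was called (limma), and neither was any row of the table (0% of 13280), while 228 rows, 1.72%, had an unadjusted p under 0.05. Among the members, only Ogn had an unadjusted p under 0.05, with a slope of 0.73 log2 units per month (SE 0.235, adjusted p = 0.9998, limma). Slopes of the members ran from -0.09 for Bgn to 0.84 for Dcn (SE 0.427). With 1 tumour left out, the unadjusted p ran from 0.00166 to 0.378 for Dcn and from 0.000143 to 0.0925 for Ogn (limma). Fmod and Podn did not reach the filter within LPS. With only 8 tumours the standard errors are wide, so a slope that was not called is not shown to be absent. Of the tumours with most Dcn, LPS 1, LPS 5 and LPS 7 were of animals 11 months of age and LPS 8 of 10 months. Of those with little Dcn, LPS 2 and LPS 6 were of 9 months, LPS 3 of 10 and LPS 4 of 12.

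Genes most like each member across the 8 tumours were read off as a description, from Pearson r over 12662 rows. The points share library scaling and the low values of LPS 5. Dcn ran closest to Dpt (dermatopontin, a matrix protein that binds decorin; r = 0.970), Igfbp6 (0.957) and Plin4 (0.954), and Lum to Dpt (0.951), Dclk1 (0.945) and Dtnb (0.933). All of these genes had lower mean levels in LPS than in WAT, Dpt going from 163 to 3.62 FPKM. Prelp ran closest to Tek, an endothelial receptor (0.972), Ptgfrn (0.956) and Svep1 (0.946). Both Prelp (3.80 FPKM, next 1.46) and Tek (15.5 FPKM) were highest in LPS 1, so their r leans on that tumour. No other endothelial marker was highest in LPS 1, and Kdr was lowest there, at 5.13 FPKM. Ogn ran closest to Aldh1a1 (0.947), 1700109H08Rik (0.915) and Gm23121 (0.914). The genes closest to Aspn were Itpr1 (0.985), Slc4a1ap (0.979) and Stambp (0.979), and those closest to Bgn were Rin2 (0.956), Memo1 (0.948) and BC035044 (0.945). Their mean levels did not follow those of Aspn and Bgn between the tissues: Itpr1 had a mean of 21.0 FPKM in WAT and 27.8 in LPS, and Rin2 of 13.6 and 6.30. Omd ran closest to Gm5559 (0.961), Ccp110 (0.950) and Pole2 (0.941), and Chad to Ulk4 (0.966), Hspa13 (0.964) and Zfp324 (0.963).

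The rest of the family was sparse. Of 9 further family genes, 3 were tested: Ecm2 rose, Chadl was lower and Tsku was not called. Chadl, a relative of Chad that is on chromosome 15, went from 1.37 to 3.18 FPKM in WAT to 0.374 to 0.826 in LPS (log2 difference -0.97, adjusted p = 0.000312, limma). It passed the filter only through the 4 WAT libraries, where it is high, so it could be tested only because of that difference, and the value is a description. It no longer reached the filter without WAT 1, WAT 2, WAT 3 or WAT 4, where 0 of these genes were lower. Tsku (tsukushi, a secreted modulator of several signalling pathways) measured 2.53 to 4.40 FPKM in WAT and 1.79 to 6.25 in LPS, a log2 difference of 0.34 with a 95% interval from -0.23 to 0.90.

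The counts of the gene lists that follow stand beside 18.9% of all rows tested that were higher and 27.0% that were lower. These are 2806 and 4007 rows. Without WAT 1 and WAT 4 they were 1402 and 2114 rows. With a single WAT library left out they were 2156 to 2321 and 2902 to 3028 rows. Smaller list counts in those settings are thus not particular to the lists. Of 20 tested genes for the linker and for chondroitin or dermatan sulfate chains, 5 rose and 6 fell, near those shares, and the median log2 difference was 0.12. Xylt1, a xylosyltransferase that starts the chains, rose from 3.20 to 6.00 FPKM in WAT to 7.03 to 20.4 in LPS (log2 difference 1.35, adjusted p = 0.000871, limma). Chst3, a chondroitin 6-O-sulfotransferase, fell from 5.77 to 12.6 FPKM to 0.172 to 2.87 (log2 difference -2.10, adjusted p = 0.000244, limma). Chpf2, a chondroitin polymerizing factor and the most abundant gene of the list not called, measured 13.8 to 20.3 FPKM in WAT and 13.5 to 33.6 in LPS. Without WAT 1, WAT 2, WAT 3, WAT 4, LPS 1 or LPS 6, each left out alone, 3 genes rose rather than 5, and the same held without WAT 1 and WAT 4 together and with no filter on low values. With array quality weights 8 rose.

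Of 6 tested genes for keratan sulfate chains, 2 rose and 1 fell, with a median log2 difference of 0.01. Chst2, a sulfotransferase, rose from 2.35 to 3.36 FPKM to 6.45 to 19.6 (log2 difference 1.54, adjusted p = 0.000211, limma). St3gal1, a sialyltransferase, fell from 8.56 to 13.9 FPKM to 0.586 to 3.81 (log2 difference -2.18, adjusted p = 0.000104, limma). B4galt1, a galactosyltransferase of many glycans, measured 24.4 to 31.7 FPKM in WAT and 16.9 to 35.7 in LPS and was not called. Without LPS 6, or with array quality weights, 2 genes fell, and without WAT 1 and WAT 4, 1 rose.

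Of 11 tested collagens of the fibrils and their surfaces, 3 rose and 4 fell, again not far from the shares over all rows, with a median log2 difference of -0.55. Col6a3, a chain of the beaded filament collagen to which biglycan and decorin attach, rose from 116 to 184 FPKM in WAT to 352 to 1696 in LPS (log2 difference 1.89, adjusted p = 0.000818, limma). Col1a2, a chain of type I collagen, fell from 458 to 1050 FPKM to 4.11 to 424 (log2 difference -3.69, adjusted p = 0.0117, limma). Col6a1 measured 180 to 220 FPKM in WAT and 29.0 to 641 in LPS and was not called. Without WAT 1 and WAT 4, 2 collagens fell and Col1a2 was not among them (adjusted p = 0.0814, limma; 0.000498 to 0.103 over all alternatives).

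Among genes for fibril assembly and crosslinking, 4 of 20 tested rose and 9 fell, with a median log2 difference of -1.04. Dpt had the largest fall, from 118 to 207 FPKM in WAT to 0.245 to 7.70 in LPS (log2 difference -5.42, adjusted p = 1.74e-06, limma). Loxl3, a lysyl oxidase, rose from 3.57 to 6.52 FPKM to 15.9 to 32.4 (log2 difference 2.08, adjusted p = 4.81e-06, limma). Fn1 (fibronectin) measured 79.3 to 139 FPKM in WAT and 74.4 to 249 in LPS and was not called. Without WAT 1 and WAT 4, 2 genes of the list rose.

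Of 17 tested growth factors and receptors that family members bind, 5 rose and 4 fell, with a median log2 difference of 0.25. Tgfb3, a transforming growth factor-β ligand, rose from 4.76 to 5.80 FPKM in WAT to 7.82 to 40.9 in LPS (log2 difference 1.81, adjusted p = 0.00133, limma). Met, the hepatocyte growth factor receptor and a receptor that decorin engages, fell from 6.72 to 17.8 FPKM to 0.293 to 3.27 (log2 difference -2.80, adjusted p = 1.06e-05, limma). Lrp1, an endocytic receptor, measured 62.5 to 74.3 FPKM in WAT and 64.3 to 104 in LPS and was not called. Without WAT 1 or WAT 3, or without WAT 1 and WAT 4, 3 genes of the list rose, and under quantile normalization or with array quality weights 8 rose.

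Of 11 proteases able to cut small leucine-rich or related proteoglycans, 4 rose and 1 fell, with a median log2 difference of 0.46. Among those that rose, Mmp13 had means of 0.0355 FPKM in WAT and 1.94 in LPS. It passed the filter only through LPS, where it is high, so its rise is a description. Adamts4 rose from 1.82 to 4.03 FPKM in WAT to 17.7 to 76.1 in LPS (log2 difference 3.30, adjusted p = 1.72e-06, limma), while its close relative Adamts5 fell from 6.45 to 12.3 FPKM to 0.287 to 4.87 (log2 difference -1.85, adjusted p = 0.00111, limma). Both are secreted aggrecanases. Mmp2, a gelatinase, measured 35.4 to 63.2 FPKM in WAT and 4.89 to 70.1 in LPS and was not called. Without LPS 1, LPS 5 or LPS 7, or with array quality weights, 2 proteases fell.

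Of 19 tested proteoglycans outside the family, 6 rose and 4 fell, with a median log2 difference of 0.25. Cspg4, a cell surface chondroitin sulfate proteoglycan also used as a pericyte marker, rose from 13.5 to 29.1 FPKM in WAT to 98.1 to 288 in LPS (log2 difference 3.02, adjusted p = 2.47e-06, limma). Gpc3, a glypican, fell from 25.2 to 39.0 FPKM to 0.327 to 24.1 (log2 difference -1.95, adjusted p = 0.0432, limma). Col15a1, a basement membrane collagen with chondroitin sulfate chains, measured 129 to 155 FPKM in WAT and 18.2 to 547 in LPS and was not called. The number of falls in this list changed when libraries were left out: 1 gene fell without WAT 1, WAT 2 or WAT 3, 2 fell without WAT 4, LPS 2, LPS 4, LPS 6 or LPS 8, and 0 without WAT 1 and WAT 4. Under quantile normalization 2 fell, and by the exact permutation test 1. Gpc3 missed the threshold without WAT 1, WAT 2, WAT 3, WAT 4, LPS 4, LPS 5 or LPS 6 (adjusted p from 0.00588 to 0.193 over all alternatives, limma).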

How the data were processed

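Total RNA of 4 WAT and 8 LPS libraries was depleted with Ribo-Zero Gold and prepared with a TruSeq Stranded Total RNA kit, per the labels' protocols. The deposited table holds FPKM values, 1 for each gene row in each library. The genome build was GRCm38 and the tools were, per the submitters' processing notes, Cuffdiff 2.2.1, Cufflinks 2.2.1, TopHat2 2.1.0, Bowtie2 and Trimmomatic; their roles are not described there. Read counts were not analysed here, so depth is known only from the smallest FPKM values (relative depth 1 to 2.54).

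Rows where 4 or more libraries reached 1 FPKM entered limma (version 3.58.1, R 4.3.3), fitted to log2(FPKM + 1) with trend and robust empirical Bayes, two-sided, and Benjamini-Hochberg adjusted at 0.05 over all 14821 rows. The age slope used the 8 LPS libraries. Correlations used all 40320 pairings, two-sided. On simulated data with the same design, 92% and 88% of genes changed by log2 -2 and 2 were recovered, and 60% and 68% of those changed by -1 and 1, with 9 false calls among 14821 genes. Only genes of higher mean level were changed, so these rates do not cover low members such as Omd, Chad, Podn and Fmod. Each gene was drawn with the same SD in both groups, whereas the median SD in the data was 0.165 in WAT and 0.346 in LPS.

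The 10 members and all gene lists were chosen with earlier results of these data known. Gene lists used rows with a single gene name. Rows joined only to microRNAs (Chpf2, Loxl2, Plod3, P2rx7, Pdgfra) and older symbols were added after the table was seen. Named were all members and, per list, the called gene with the largest difference each way and the most abundant gene not called. The marker lists were stromal fibroblast, adipocyte, pericyte and smooth muscle, endothelial, macrophage, lymphocyte, skeletal muscle, cartilage, bone, tendon, epithelium and mesothelium, and Schwann cell. The labels call the libraries biological replicates. Replicate numbers are shared between groups but do not pair animals. Alternatives were other pseudocounts, filters, scalings, weights, a replicate block, an Xist covariate, an exact permutation test and leaving out libraries.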

Additional observations from a re-analysis of the deposited data

Results flagged for a closer look

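Of 70 groups of values examined (34 genes and their sum over the members, in WAT and in LPS), 8 held a library far from the others, and chance alone marks about 1 group in 20. Among the members, Bgn was lowest in WAT 2, at 51.5 FPKM against 54.3 in the nearest library, a small gap beside the very even WAT values. Prelp was highest in LPS 1, at 3.80 FPKM against 1.46 in the next tumour, and still far under every WAT library.

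Among the sugar chain enzymes, Chst2 stood high in WAT 2 (3.36 FPKM, next 2.39) and in LPS 6 (19.6 FPKM, next 12.6), and Chst3 stood high in WAT 2 (12.6 FPKM, next 6.64). Col6a3 reached 1696 FPKM in LPS 1, with 827 in the next tumour. Lrp1 was lowest in WAT 2, at 62.5 FPKM with 72.5 next, and Met was highest in LPS 5, at 3.27 FPKM with 1.55 next. WAT 2 accounts for 4 of the 8 values and LPS 1 for 2.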

How the results depend on the processing

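The 8 called members kept their direction and their call under every alternative that gave a value, 24 for Fmod, 25 for Podn and 26 for each other gene, with adjusted p at most 0.0248 (limma and the exact permutation test). Log2 differences ran from 3.26 to 3.61 for Aspn, 1.47 to 1.82 for Bgn, -5.48 to -4.22 for Dcn and -3.10 to -1.10 for Fmod, the last depending on the pseudocount. Fmod fell under the filter at 5 FPKM, and Fmod and Podn did so without WAT 1, WAT 4 and LPS 8, a setting chosen after seeing the data, so that 5 and 4 members were lower there. Shared replicate numbers did not pair the samples (correlations of same-numbered libraries from -0.017 to 0.092), and with a replicate block 2 members were higher and 6 lower, as without it. Under the block 3 rather than 5 growth factor and receptor genes rose, and 2 rather than 1 genes fell among keratan sulfate enzymes and among proteases. The correlation of Dcn and Lum ran from 0.875 to 0.968 when 1 tumour was left out and missed the threshold without LPS 2 (r = 0.875, exact permutation, adjusted p = 0.239; 0.0135 to 0.239 over all alternatives). Over the whole table, 1402 rows were higher and 2114 lower without WAT 1 and WAT 4, and 1327 and 1999 also without LPS 8, against 2806 and 4007. Quantile normalization moved the median log2 difference of all rows from -0.05 to 0.10 and gave 4082 higher and 3459 lower rows, with the members' 2 and 6 calls kept. Depth limits the lowest values, such as Prelp in LPS 2, which rest on a few fragments.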
